A study of Mus musculus with 21 samples.

Results

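The RNF genes encode proteins with a RING finger, a zinc-binding fold that most of them use to bring a ubiquitin-charged E2 enzyme to a substrate. Members were every gene whose deposited name is Rnf followed by a number, with or without 1 closing letter, which gave 82 genes of 55335 gene identifiers in 21 RNA sequencing libraries. All 82 are annotated as protein coding. Ubiquitin passes from an E1 to an E2 enzyme and then, with the help of an E3 ligase, to a protein that is degraded, moved or given new partners. In oocytes, which mature and begin embryonic life with little or no new transcription, protein turnover by ubiquitin ligases is known to drive meiotic progression and the clearing of maternal proteins.

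The libraries came from ovaries of female ICR mice, and held either oocytes labelled as MII or the granulosa cells around them. Young mice were 6 to 8 weeks old and Aged mice 18 months old. The Aged + Unsorted, Aged + LRP1high and Aged + LRP1low groups were 18 month old mice sampled 3 weeks after human umbilical cord mesenchymal stem cells (UC-MSCs) had been placed under the ovarian capsule, either unsorted or sorted for high or low surface LRP1, an endocytic receptor. Oocytes gave 3 Young, 2 Aged, 2 Aged + Unsorted, 3 Aged + LRP1high and 2 Aged + LRP1low libraries, and granulosa cells gave 1, 2, 1, 3 and 2. No sham operation is described for the Aged mice, so the operation and the cells given cannot be told apart. The labels call the libraries of a group biological replicates. How many mice or cells made up a library is not given in the sources used here. The p-values therefore measure only the spread between these libraries, which may be partly technical. Values are FPKM, fragments per kilobase of gene scaled to the fragments of the library, and tests were made on log2(FPKM + 1), a scale that understates changes of low genes.

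Several libraries went against their labels. The median of 10 oocyte marker genes (Zp3, Gdf9, Bmp15 and others) was 84.9 to 1001 FPKM in 8 oocyte libraries and 0.892, 11.6, 5.02 and 7.77 FPKM in the other 4, which were Young 1, Aged 1 and both Aged + LRP1low libraries. The library labelled granulosa Aged + Unsorted had an oocyte marker median of 800 FPKM, and 80.7% of 14246 genes lay within 2-fold of their value in oocyte Aged + Unsorted 2. Both granulosa Aged libraries had 0 of 10 granulosa and cumulus markers at FPKM 1 or more, and Foxl2, which defines the granulosa lineage, was at 0.0964 and 0.0837 FPKM in them. Granulosa Young 1 and Aged + LRP1high 3 had 9 and 8 of the 10. Depth was 0.278 to 3.40 aligned gigabases in oocyte libraries and 0.335 to 1.49 in granulosa libraries. Since these are bulk libraries, fewer cells of a type and less RNA per cell cannot be told apart.

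The number of RNF genes detected differed widely between libraries. All 82 genes reached FPKM 1 in at least 1 oocyte library, and 76 did so in at least 1 granulosa library, while 0 did so in all 21. Of the 82, 12 did so in none of the 8 oocyte libraries high in oocyte markers. Between 13 and 81 members reached FPKM 1 in an oocyte library. In granulosa libraries the number ran from 1 to 62. The share of members at FPKM 1 or more was above the share of all protein-coding genes in 20 of 21 libraries, the exception being granulosa Aged 2 (1.22% against 3.94%).

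**Figure D1:**
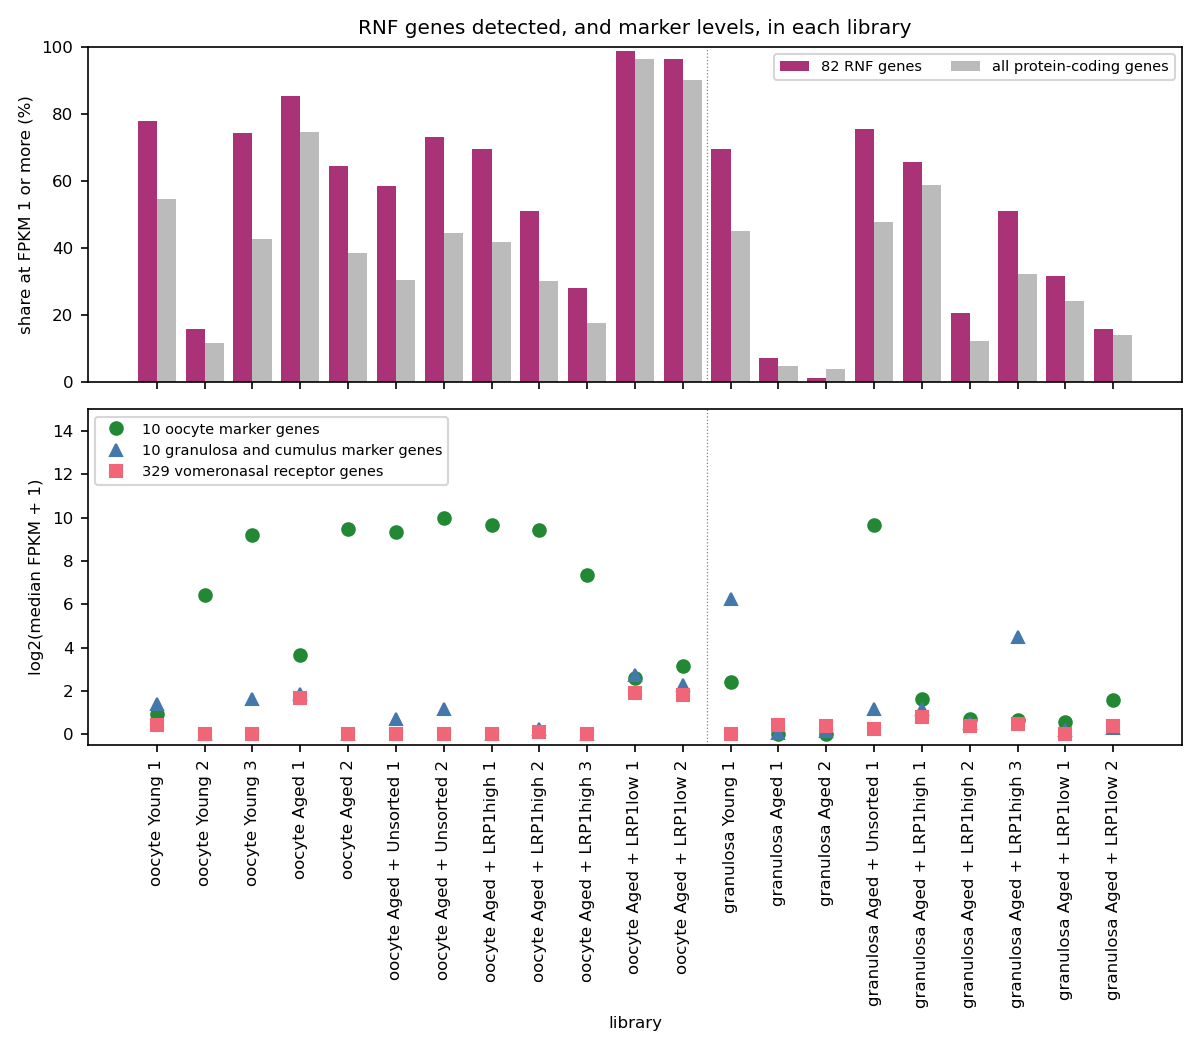
Upper panel: share of the 82 RNF genes (purple) and of all protein-coding genes (grey) at FPKM 1 or more in each library, in percent. Lower panel: log2(median FPKM + 1) of 10 oocyte markers, 10 granulosa and cumulus markers and 329 vomeronasal receptor genes. The 4 oocyte libraries with oocyte marker medians of 11.6 FPKM or less detected 64, 70, 81 and 79 RNF genes.

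The number detected moved with the state of the library. The 4 oocyte libraries low in oocyte markers, taken in the order Young 1, Aged 1, Aged + LRP1low 1 and Aged + LRP1low 2, held 64, 70, 81 and 79 members at FPKM 1 or more, against 13 to 61 in the other 8 oocyte libraries. In the same 4 libraries the median of 329 vomeronasal receptor genes, which belong to the nose, was 0.335, 2.13, 2.72 and 2.48 FPKM, and it was 0 to 0.0749 FPKM in the other 8. A set of 12 members was at FPKM 1 or more in none of those 8 libraries: Rnf112, Rnf128, Rnf133, Rnf148, Rnf151, Rnf183, Rnf208, Rnf217, Rnf222, Rnf223, Rnf224 and Rnf39. All 12 reached FPKM 1 in at least 3 of the 4 libraries low in oocyte markers, and 6 of them in all 4. Rnf133, Rnf148 and Rnf151 are known from testis. The part of library state in the differences described further on was not tested.

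**Figure D2:**
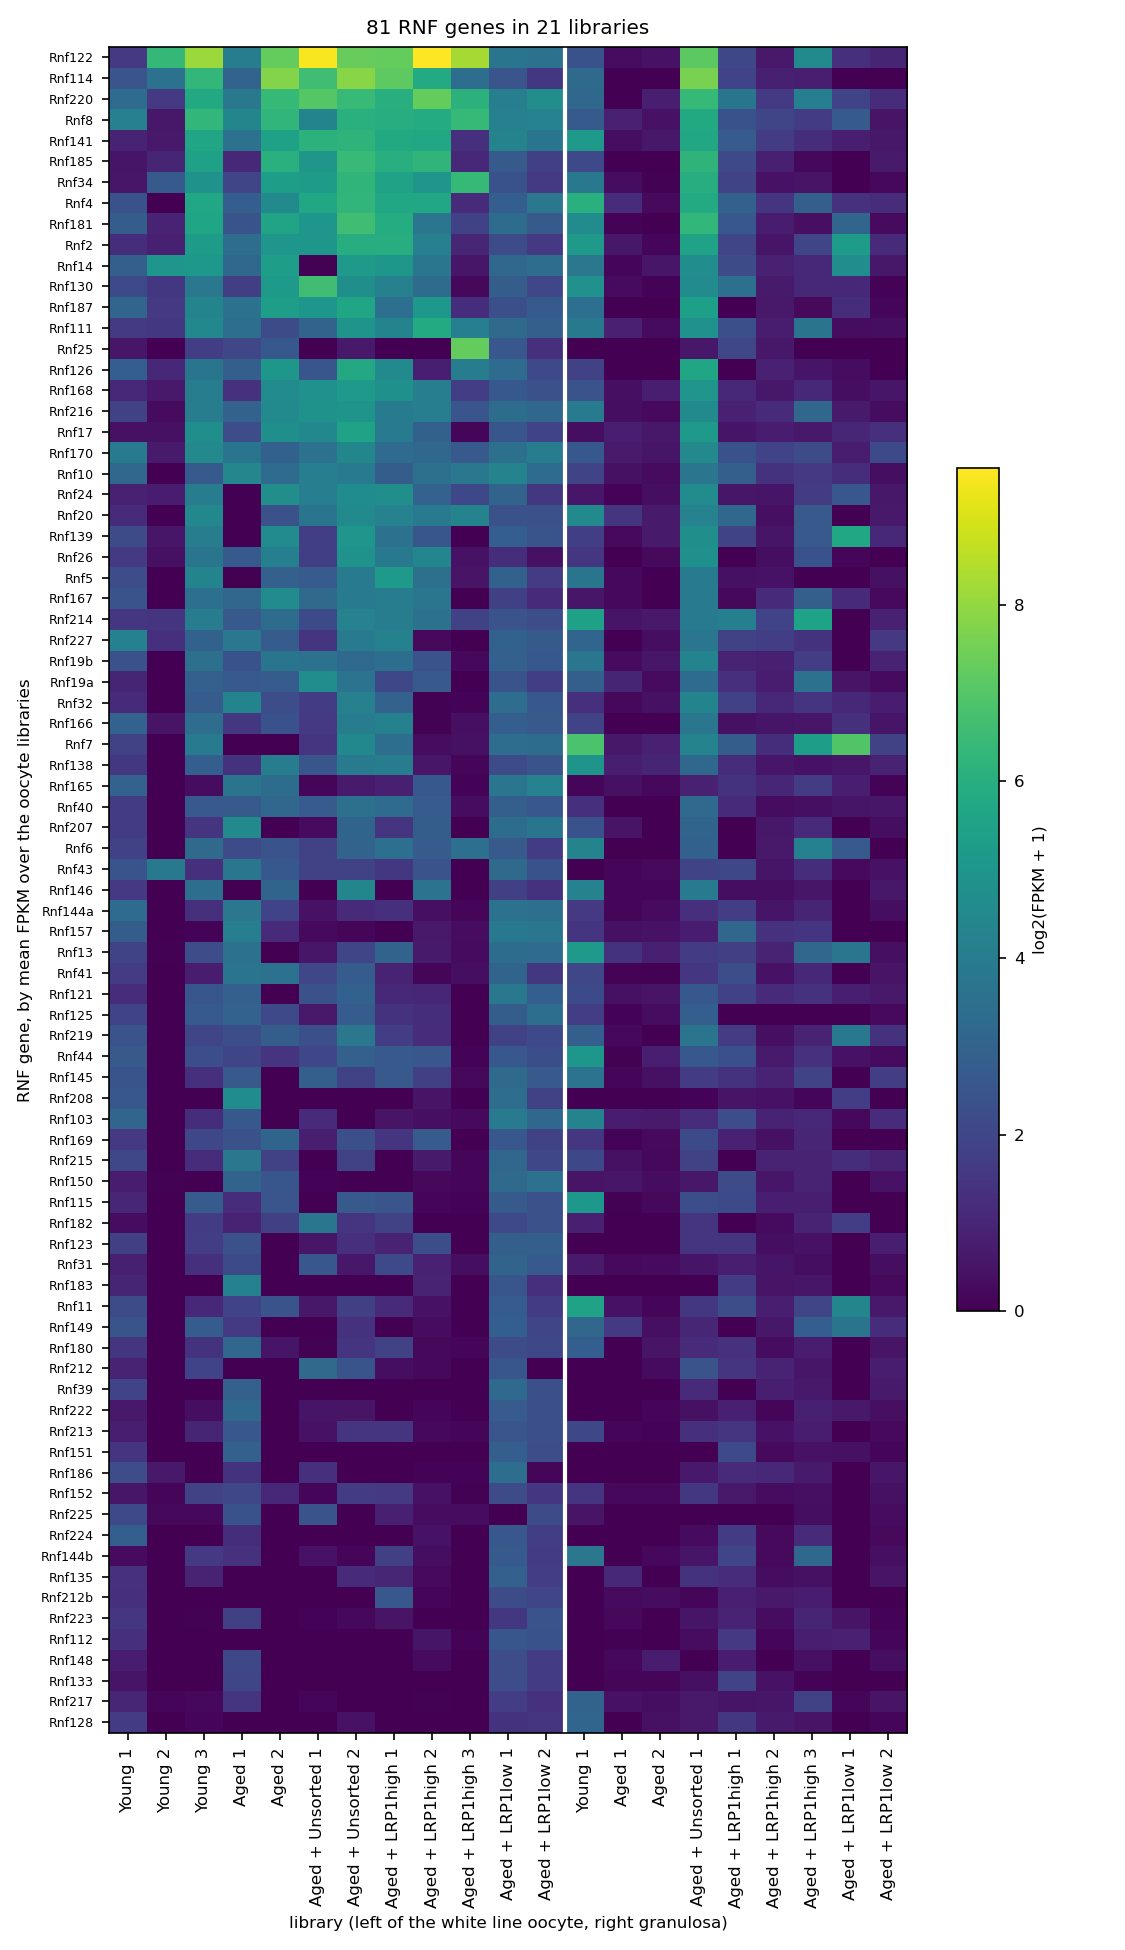
Levels of 81 RNF genes (rows, ordered by mean FPKM over the oocyte libraries) in 21 libraries (columns), as log2(FPKM + 1), with oocyte libraries left of the white line. Rnf122 leads 6 of 12 oocyte libraries, and both granulosa Aged columns are dark throughout.

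Oocyte libraries were led by a few members. Rnf122, a small transmembrane RING protein, had the highest mean over the oocyte libraries and was the most abundant member in 6 of 12. Its FPKM was 1.97, 80.9 and 278 in the Young libraries, 15.4 and 157 in those from Aged mice, 703 and 159 after unsorted cells, 155, 747 and 303 in Aged + LRP1high, and 12.1 and 10.7 in Aged + LRP1low. The 4 lowest values are those of the 4 libraries low in oocyte markers. Rnf114, a ligase studied in the maternal-to-zygotic transition, had 4.80, 11.0 and 78.2 FPKM in the Young libraries, 7.31 and 218 in those from Aged mice, 96.5 and 227 after unsorted cells, 145, 55.4 and 9.93 in Aged + LRP1high, and 4.76 and 1.91 in Aged + LRP1low. The Aged + LRP1low values lay below those of every other library, and the other groups overlapped. In all 8 oocyte libraries with high oocyte markers 8 members were at FPKM 1 or more, among them Rnf111, Rnf114, Rnf122, Rnf187, Rnf214, Rnf220 and Rnf34.

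The 10 highest members by mean over oocyte libraries also held Rnf220, Rnf8, Rnf141, Rnf185, Rnf34, Rnf4 and Rnf181, with means from 27.0 FPKM for Rnf181 to 59.2 FPKM for Rnf220. Rnf4 is a ligase that recognises SUMO chains, and Rnf185 takes part in protein removal from the endoplasmic reticulum. Rnf220 was among the 10 highest members in all 12 oocyte libraries. Rnf25, a ligase that partners Ube2d enzymes, was at 157 FPKM in oocyte Aged + LRP1high 3 and at most 5.16 FPKM in the other 11 oocyte libraries. Its mean of 14.6 FPKM, below those of the 10 highest, rests on that 1 library.

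By mean FPKM, granulosa libraries had a different leading member. It was the most abundant member only in Young 1 and Aged + LRP1low 1, and other members led the other granulosa libraries. Rnf7 (also known as Sag or Rbx2), the RING partner of cullin 5, had the highest granulosa mean, with 112 FPKM in the Young library, 0.542 and 0.823 in those from Aged mice, 18.2 after unsorted cells, 5.98, 1.35 and 39.1 in Aged + LRP1high, and 122 and 2.73 in Aged + LRP1low. The high values were in Young 1, Aged + LRP1high 3 and Aged + LRP1low 1. The last of these had a luteal marker median of 519 FPKM. In oocyte libraries Rnf7 ranged from 0 to 20.9 FPKM. After Rnf7, the highest granulosa means were those of Rnf114, Rnf122, Rnf4 and Rnf220, and for Rnf114 and Rnf122 the single Aged + Unsorted library, with 198 and 141 FPKM, set that rank. Rnf220 also had its highest granulosa value, 83.3 FPKM, in that library.

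The chromatin and DNA damage members were detected in most oocyte libraries. Of 9 listed genes, 8 or 9 were at FPKM 1 or more in 10 of 12 oocyte libraries, the exceptions being Young 2 with 1 and Aged + LRP1high 3 with 6. Those 10 include the 4 libraries low in oocyte markers, where 54.6% to 96.5% of all protein-coding genes were at that level. In the other 8 oocyte libraries that share was 11.7% to 44.5%, with 11.7% in Young 2 and 17.6% in Aged + LRP1high 3. Rnf2 (Ring1b), the catalytic subunit of Polycomb repressive complex 1, ran from 0.793 to 61.0 FPKM over the oocyte libraries. Rnf20 and Rnf40, which form the ligase for histone H2B, peaked at 22.1 and 10.6 FPKM, both in Aged + Unsorted 2. Rnf168, which ubiquitinates H2A at double-strand breaks after Rnf8 has acted, ran from 0.572 to 35.2 FPKM. Among germ cell members, Rnf17, a Tudor protein of germ cell granules, ran from 0.0900 to 43.7 FPKM, and Rnf212, a factor of meiotic crossing over, reached 8.93 FPKM. Of the membrane members that act on growth factor receptors, Rnf43, a ligase for Wnt receptors, ranged from 0 to 13.5 FPKM.

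The first comparison asked how members differ between oocytes and granulosa cells within Aged + LRP1high, the only group with 3 libraries of both. The change is oocyte minus granulosa, fitted with limma on 13047 genes, of which 57 were members. Past a fold of 1.5 with a Benjamini-Hochberg adjusted p below 0.05, 6 members rose, among them Rnf122, Rnf34, Rnf114, Rnf8 and Rnf220, and 0 members fell. These 6 are 10.5% of the members tested, where 12.2% of all genes were called higher (0.468% lower), so the share of members called was near that of genes at large. The median member changed by 0.92 and the median gene by 0.61 on the log2 scale. Without adjustment, 14 members were higher and 0 lower at p under 0.05, where 22.3% of all genes were higher and 2.01% lower. Calls either way made up 12.7% of all genes. The count of 6 ran from 2 to 18 when a library was left out, with 18 called without oocyte Aged + LRP1high 3 (31.6% of members and 20.8% of all genes higher) and 2 without granulosa Aged + LRP1high 1 (3.51% and 5.76%). It was 3, or 5.26% of members, without oocyte Aged + LRP1high 1 or granulosa Aged + LRP1high 2 or 3, where 4.88%, 5.37% and 8.998% of all genes were higher.

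Rnf122 was at 155, 747 and 303 FPKM in the 3 oocyte libraries and 3.19, 0.575 and 22.9 FPKM in the 3 granulosa libraries. Each oocyte value lay above every granulosa value, by a log2 change of 5.93 (SE 1.10, limma adjusted p = 0.00145). Rnf34, a ligase known to restrain caspase-8, was at 44.3, 30.8 and 83.3 FPKM against 2.84, 0.391 and 0.435, a change of 4.65 (SE 0.96, limma adjusted p = 0.00299). Rnf34 was called in 13 of 13 alternative settings, with adjusted p up to 0.0374. Part of Rnf34 lies opposite Kdm2b, and reads of overlapping genes could not be told apart because the strand setting of the libraries is not settled by the sources. The same limit holds for other members named further on. Rnf139 shares 17760 bases of its span with Gm49356 on the same strand, and Rnf144a shares 25032 with 4930549C15Rik on the opposite strand.

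Rnf114 was at 145, 55.4 and 9.93 FPKM in oocytes and 2.77, 0.791 and 0.745 FPKM in granulosa cells (log2 change 4.30, SE 1.06, limma adjusted p = 0.0104). Rnf8, the ligase that starts the ubiquitin response at DNA breaks, was at 60.2, 57.0 and 83.7 FPKM against 4.32, 2.94 and 2.26 (4.03, SE 0.92, adjusted p = 0.00603). The oocyte values of Rnf8 lay closer together than those of the other 4 members named, and the gene shares its strand with the overlapping gene models Gm28043 and Gm28052. Rnf220, which is known to act on Sin3b and to stabilise beta-catenin, was at 62.5, 157 and 69.7 FPKM against 12.3, 2.10 and 16.6 (3.31, SE 1.00, adjusted p = 0.0352). In each of the 5 the groups did not overlap, as was so for 22.8% of members and 18.8% of all genes on the higher side. On the lower side it was so for 3 members, 5.26%, against 12.9% of all genes.

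**Figure D3:**
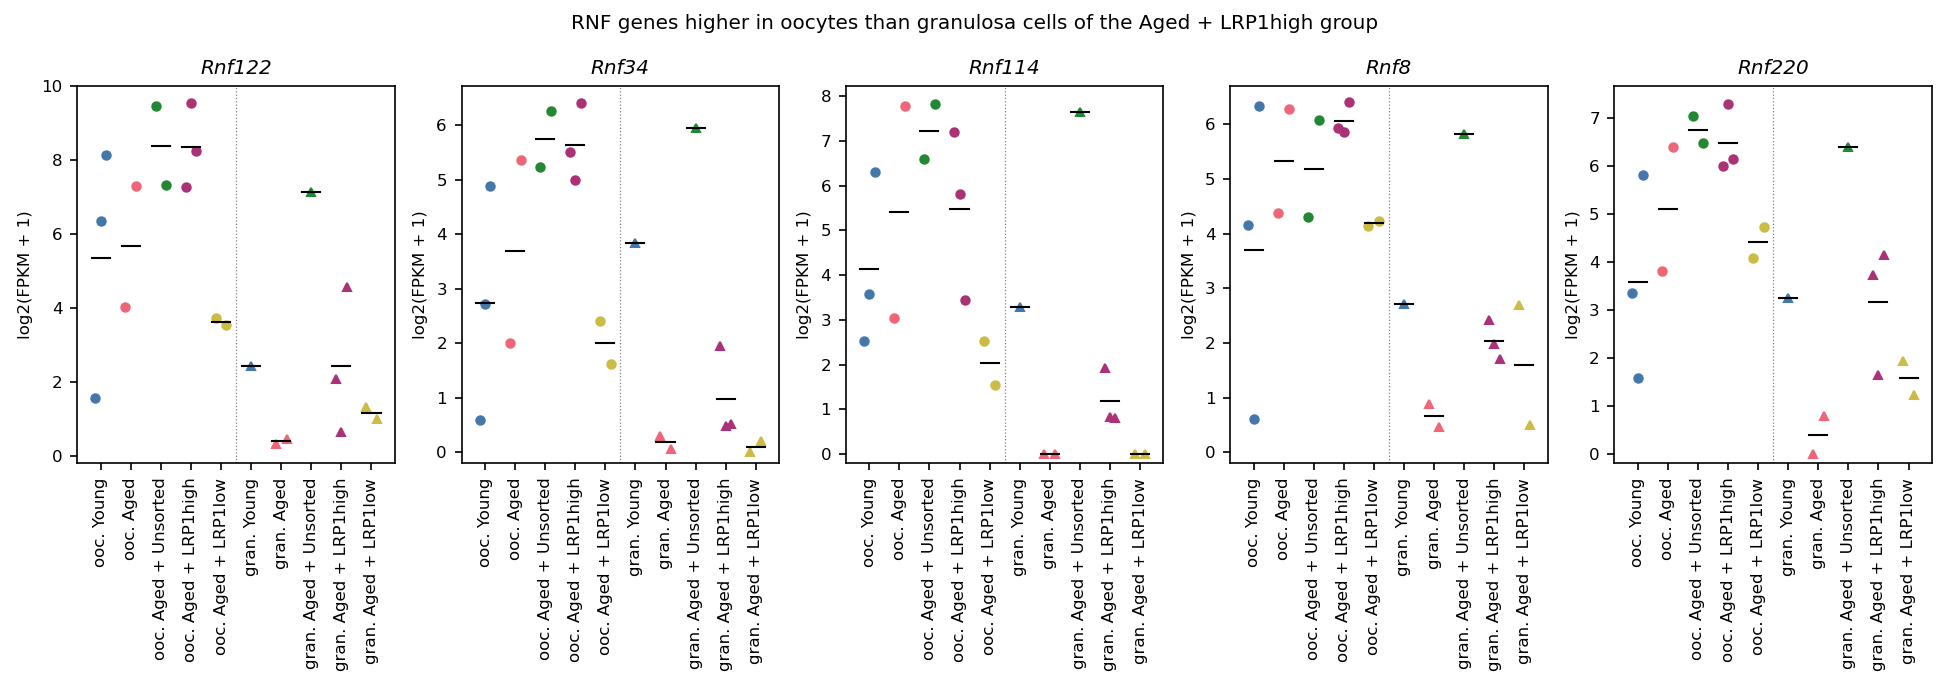
log2(FPKM + 1) of 5 members called higher in oocytes, by cell type and group: circles are oocyte libraries, triangles granulosa libraries, colours the groups and bars the group means. The lone granulosa Aged + Unsorted triangle sits with the oocyte libraries in all 5 panels (Rnf122 at 141 FPKM).

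The same contrast held for oocyte markers, all 10 of which were called higher, and granulosa Aged + LRP1high 1 and 3 had 6 and 8 of 10 granulosa markers at FPKM 1 or more while Aged + LRP1high 2 had 0. Members with lower values in every oocyte library were Rnf157, Rnf103 and Rnf121, with changes of -1.66, -1.05 and -0.76 that did not pass (limma adjusted p = 0.310, 0.475 and 0.598). Rnf41 was at 0.945, 0.126 and 0.273 FPKM against 3.91, 0.380 and 1.13 (change -0.79, adjusted p = 0.590). Other parts of the ubiquitin pathway are given as counts. Of 31 E2 genes tested, 9 rose and 0 fell. Of 5 ubiquitin and E1 genes tested, 3 rose, and of 8 cullin ligase genes tested, 4 rose. Of 10 listed partners of members tested, such as Bmi1 and Arih1, 0 were called. Over all genes tested, 12.2% were called higher and 0.468% lower. Ube2h, which pairs with CTLH ligases, was the E2 gene with the largest change, at 348 FPKM on average in oocytes and 0.935 in granulosa cells (6.94, SE 1.05, adjusted p = 0.000285).

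**Figure D4:**
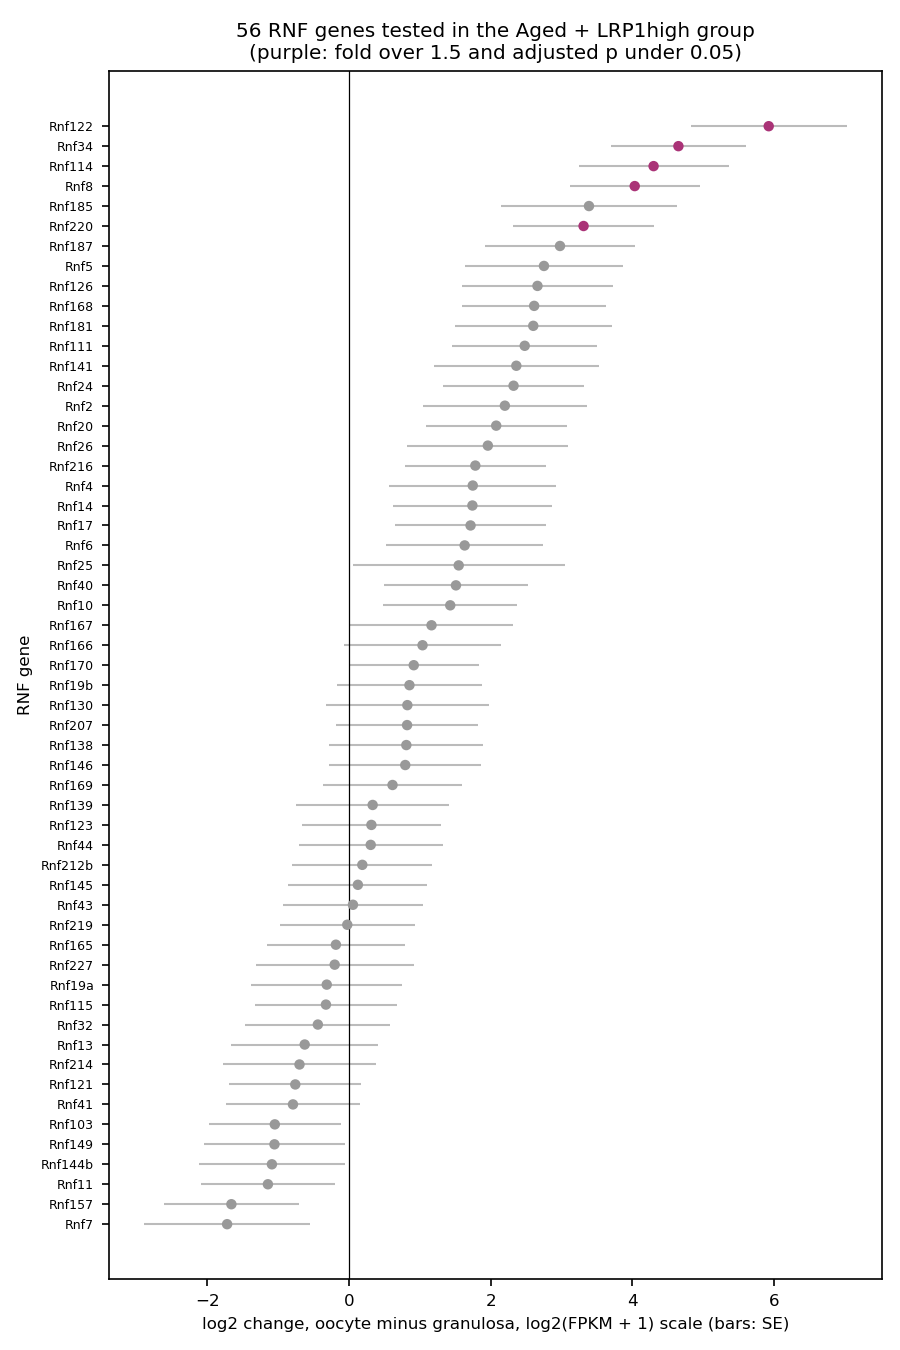
Change between oocytes and granulosa cells of the Aged + LRP1high group for 56 of the 57 RNF genes tested, ranked, on the log2(FPKM + 1) scale, with bars for the standard error. The 5 purple points are genes called higher, from 3.31 for Rnf220 to 5.93 for Rnf122.

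For 3 of the 6 members, a promoter was in the RefSeq table of GRCm38.p6, which holds 64 of the 82 members. They are shown because their members were all called higher in oocytes than in granulosa cells. Whether these genes vary together or share control was not tested. Each holds 300 bases around the annotated start, most of them before it, on the plus strand, 5′ to 3′, with GC boxes (GGGCGG or its reverse complement CCGCCC) in capitals. Rnf114 is at chr2:167492395-167492694, Rnf34 at chr5:122849938-122850237 and Rnf8 at chr17:29614539-29614838.
Rnf114: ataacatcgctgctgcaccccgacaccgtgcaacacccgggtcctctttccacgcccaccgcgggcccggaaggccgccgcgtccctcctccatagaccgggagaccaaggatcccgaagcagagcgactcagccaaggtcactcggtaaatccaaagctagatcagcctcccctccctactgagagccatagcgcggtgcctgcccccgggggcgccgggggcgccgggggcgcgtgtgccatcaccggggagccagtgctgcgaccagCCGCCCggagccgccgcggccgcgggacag
Rnf34: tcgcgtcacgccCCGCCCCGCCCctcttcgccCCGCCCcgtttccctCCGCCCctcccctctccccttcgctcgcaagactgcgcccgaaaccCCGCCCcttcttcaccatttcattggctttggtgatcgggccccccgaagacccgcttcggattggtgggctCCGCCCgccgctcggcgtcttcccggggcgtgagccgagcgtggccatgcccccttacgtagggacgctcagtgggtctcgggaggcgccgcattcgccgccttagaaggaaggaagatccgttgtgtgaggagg
Rnf8: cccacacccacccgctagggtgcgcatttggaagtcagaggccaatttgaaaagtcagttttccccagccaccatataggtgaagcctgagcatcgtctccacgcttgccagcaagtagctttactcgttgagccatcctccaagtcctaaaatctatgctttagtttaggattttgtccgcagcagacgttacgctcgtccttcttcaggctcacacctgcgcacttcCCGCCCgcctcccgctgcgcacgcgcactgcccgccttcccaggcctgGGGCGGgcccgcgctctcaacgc
Rnf34 has 6 GC boxes in this window (overlapping matches counted), Rnf8 has 2 and Rnf114 has 1. The 64 members in the table have 82 promoters there, some genes having more than 1. A GC box was in 65.9% of these 82 promoters, in 47.7% of the promoters of protein-coding genes and in 35.7% of all promoters in the table. The dinucleotide CG, which overlaps the GC box, was in 98.8% of member promoters and 94.6% of all. The E-box CANNTG was in 74.4% and 72.3%. The homeobox motif TAATTG, read on both strands, was in 2.44% and 8.00%, and in 0 of these 3 promoters.

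The ageing comparison set 2 Aged against 3 Young oocyte libraries, in a fit where all 12 oocyte libraries gave the filter and the spread. No member was called (limma, 0 of 76, where 0.0964% of 28004 genes were called higher and 0 lower). At unadjusted p under 0.05, 3 members were higher and 0 lower, where 8.43% of all genes were higher and 0.214% lower. The 3 were Rnf41, Rnf150 and Rnf165. The median member changed by 0.93 and the median gene by 0.94. Young 1 and Aged 1 are both among the libraries low in oocyte markers, so each group mixed both kinds.

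Rnf41 (Nrdp1), a ligase for ErbB3 and parkin that the study names, was at 2.25, 0 and 0.636 FPKM in Young and 11.7 and 11.2 FPKM in Aged. Both Aged values lie above all Young values. Aged 1 is low in oocyte markers and Aged 2 is not, and the part of library state was not tested. The change was 2.84 (SE 0.73, limma adjusted p = 0.127). Rnf150, a transmembrane member with a protease-associated domain, was at 0.717, 0.0310 and 0 FPKM in Young and 7.21 and 4.93 FPKM in Aged (2.53, SE 0.57, adjusted p = 0.0910). Rnf41 and Rnf150 are on the ageing list that the study drew up from these libraries, so their direction is not independent evidence. As a further check the study evaluated transcripts of selected genes, Rnf41 among them. It reports that LRP1high cells restored their expression in oocytes of aged mice. The values of that check were not used here. Groups did not overlap for 7 members higher in Aged, 9.21% of those tested, where 11.0% of all genes did so, and for 0 members lower, where 0.646% did. Without Aged 2, 7 members were called higher, 9.21% of those tested, where 32.0% of all genes were. Without the 4 libraries low in oocyte markers, a setting chosen after seeing the data, 0 of 57 members were called, where 7.501% of 12105 genes were called higher and 0.0826% lower. That setting leaves 1 Aged library, assumed to vary like the other groups, and in it Rnf41 changed by 3.26 (limma adjusted p = 0.0512).

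The Rnf41 primers of the study show which part of the gene its assay reads, and both lie in coding exon 4 on chromosome 10 of GRCm38, in 2 of 4 annotated transcripts, with a product of 92 bases. The forward primer is at chr10:128435381-128435399 and the reverse at chr10:128435451-128435472.
Rnf41 forward: tccggtagaccgtagcgtt
Rnf41 reverse: cacaggcaatctgtagctttga
FPKM sums over the whole gene and so does not separate these transcripts.

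Transplantation of LRP1high cells was compared with Aged in oocytes, and the 2 oocyte Aged libraries also serve the ageing, Aged + Unsorted and Aged + LRP1low comparisons and the interaction, so these results are not independent of each other. No member was called (0 of 76, limma), where 0.753% of all genes were called lower, 0.0179% higher and 0.771% either way. Without Aged 2, 9 members were called lower, 11.8% of those tested, where 37.8% of all genes were. At p under 0.05 without adjustment 1 member was higher and 6 lower, against 0.925% and 9.94% of all genes. Rnf41 was at 0.945, 0.126 and 0.273 FPKM in Aged + LRP1high and 11.7 and 11.2 FPKM in Aged, with no overlap (change -3.15, SE 0.73, adjusted p = 0.0678). Rnf150 was at 0, 0.141 and 0.122 FPKM against 7.21 and 4.93 (-2.68, SE 0.57, adjusted p = 0.0555). Without the 4 libraries low in oocyte markers, which leaves 1 Aged library assumed to vary like the rest, Rnf41 changed by -3.12 with a limma adjusted p of 0.0467 and was the 1 member called of 57 (1.75%), where 7.77% of all genes were called lower.

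Members higher in every LRP1high library than in Aged, none of them past the threshold, were Rnf20, Rnf111, Rnf7 and Rnf6. Rnf20 was at 17.8, 14.8 and 18.1 FPKM against 0 and 4.16 (2.97, SE 1.16, limma adjusted p = 0.326). Rnf111 (Arkadia), which removes inhibitors of TGF-beta signalling, was at 18.7, 55.4 and 16.4 FPKM against 9.86 and 3.60 (1.92, adjusted p = 0.370). Groups did not overlap for 4 members higher and 11 lower (5.26% and 14.5%), where 3.85% and 12.4% of all genes did not. The median member changed by -0.67 and the median gene by -1.05.

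The other transplanted groups gave no call among members. In Aged + Unsorted, 0 of 76 members and 0 of 28004 genes were called by limma. At unadjusted p under 0.05 there were 2 members higher and 3 lower, where the shares of all genes were 1.70% and 7.04%. Groups did not overlap for 12 members higher and 10 lower (10.3% and 11.3% of all genes). Without Aged 2, 7 members were called lower (9.21%), where 34.6% of all genes were. Rnf150 was at 0.0545 and 0 FPKM there against 7.21 and 4.93 in Aged (-2.76, SE 0.63, adjusted p = 0.101). Rnf212 was at 8.93 and 4.65 FPKM and listed at 0 in both Aged libraries (adjusted p = 0.225). Rnf41 was at 3.11 and 5.82 FPKM (-1.24, adjusted p = 0.436). In Aged + LRP1low, where both libraries are low in oocyte markers, 0 of 76 members were called by limma, while 3.09% of all genes were called higher, 0.0750% lower and 3.17% either way. At unadjusted p under 0.05, 3 members were higher and 0 lower, where the shares of all genes were 13.2% and 0.953%. Groups did not overlap for 15 members higher and 11 lower (27.1% and 9.55% of all genes). Without Aged 1, 7 members were called (9.21%), where 32.5% of all genes were called either way. Rnf7, at 9.56 and 9.47 FPKM, was listed at 0 in both Aged libraries (adjusted p = 0.299). Rnf41 was at 7.34 and 1.90 FPKM (-1.34, adjusted p = 0.514), and Rnf150 at 8.88 and 10.8 FPKM (0.63, adjusted p = 0.710).

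**Figure D5:**
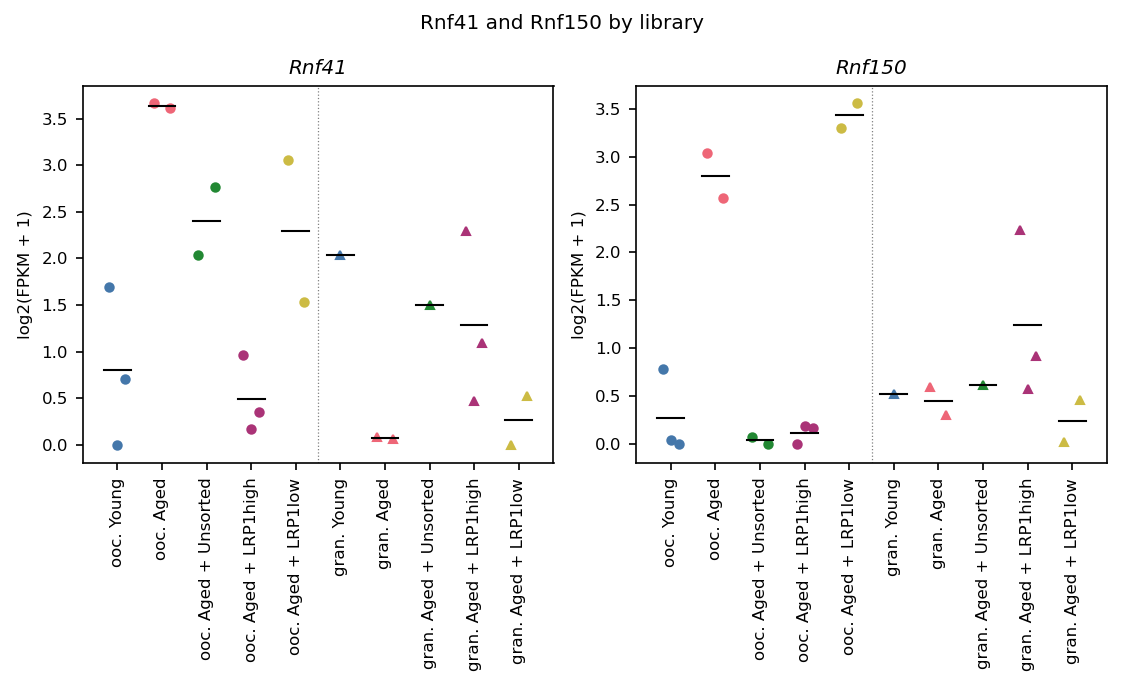
log2(FPKM + 1) of Rnf41 and Rnf150 in each library: circles oocyte, triangles granulosa, colours the groups, bars the group means. Both genes are high in the 2 oocyte Aged libraries, low in Aged + LRP1high, and Rnf150 is highest in Aged + LRP1low.

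The comparison between the sorted cells, Aged + LRP1high against Aged + LRP1low in oocytes, had 6 members lower and 0 higher. That is 7.89% of 76, where 24.8% of all genes were called lower, 1.21% higher and 26.0% either way. As in the other comparisons among oocyte groups, all genes means 28004 genes, more than the 21899 protein-coding genes of the annotation. Without the 4 libraries low in oocyte markers, 12105 genes and 57 members pass the filter. The shares of members and of all genes are thus over unlike sets of genes. At unadjusted p under 0.05, 3 members were higher and 15 lower (3.17% and 45.9% of all genes). The count of 6 fell to 0 without any single Aged + LRP1high library and to 1 (1.32%) without either Aged + LRP1low library, where 6.38% and 6.01% of all genes were called lower. Rnf157, a ligase known from neurons, was at 0, 0.577 and 0.247 FPKM in Aged + LRP1high and 13.3 and 12.5 FPKM in Aged + LRP1low (-3.48, SE 1.00, limma adjusted p = 0.0360). Rnf150 was at 0, 0.141 and 0.122 FPKM against 8.88 and 10.8 (-3.31, SE 0.57, adjusted p = 0.0192). In both, the groups stand apart without overlap.

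Rnf103, a membrane ligase of the endoplasmic reticulum, was at 0.424, 0.297 and 0.173 FPKM against 14.3 and 8.02 (-3.18, SE 0.99, limma adjusted p = 0.0424). Rnf144a, a RING-between-RING ligase, was at 1.41, 0.295 and 0.105 FPKM against 11.1 and 10.4 (-2.95, SE 0.96, adjusted p = 0.0459). Rnf39 and Rnf151 were listed at 0 in all 3 Aged + LRP1high libraries, and had 8.53 and 3.99 FPKM and 6.32 and 3.80 FPKM in Aged + LRP1low (adjusted p = 0.0470 and 0.0480). Both genes were below FPKM 1 in all 8 libraries rich in oocyte markers. They therefore passed the filter, a mean FPKM of 1, only through libraries low in those markers, which include both of Aged + LRP1low. Their calls are not independent of that filter. Rnf151, Rnf39 and 4 others of the 12 members below FPKM 1 in the oocyte-marker-rich libraries reached FPKM 1 in all 4 libraries low in those markers. Both LRP1low libraries belong to that set, and their vomeronasal receptor medians were 2.72 and 2.48 FPKM against 0 to 0.0749 FPKM in the 8 libraries rich in oocyte markers, which include all 3 of Aged + LRP1high. Oocyte markers moved with the contrast, all 10 being higher in Aged + LRP1high, 3 of them called, while 9 of 9 granulosa markers tested were lower, 4 of them called. Their part in the result was not tested.

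Members with higher values in all 3 Aged + LRP1high libraries did not pass the threshold, as for Rnf122 (4.73, SE 1.67, limma adjusted p = 0.0556), Rnf34 (3.62, SE 1.25, adjusted p = 0.0522), Rnf114 (3.45, SE 1.53, adjusted p = 0.0956), Rnf220 and Rnf8. After quantile normalization the changes of Rnf220 and Rnf8 turned to -0.67 and -0.65. Groups did not overlap for 29 members lower and 8 higher (38.2% and 10.5%, against 62.6% and 6.82% of all genes).

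Granulosa cells of Aged + LRP1high were compared with Aged over 13002 genes, 56 of them members. None of either was called by limma, with 11 members higher and 0 lower at p under 0.05 without adjustment (7.99% and 0.515% of all genes). Rnf214 had the largest change, at 16.5, 2.76 and 45.8 FPKM against 0.461 and 0.577 (3.26, SE 1.05, limma adjusted p = 0.458). Rnf220 was at 12.3, 2.10 and 16.6 FPKM against 0 and 0.721 (2.77, adjusted p = 0.458). Rnf41 was at 3.91, 0.380 and 1.13 FPKM against 0.0575 and 0.0415 (1.21, adjusted p = 0.458). Every library of Aged + LRP1high lay above Aged for 35 members, 62.5% of those tested, where 50.4% of all genes did so, and below it for 1 member, where 1.38% did. The Aged libraries had 6 and 1 members at FPKM 1 or more (7.32% and 1.22%) against 54, 17 and 42 (65.9%, 20.7% and 51.2%). The shares of all protein-coding genes were 4.80% and 3.94% against 58.9%, 12.4% and 32.3%.

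For granulosa Aged + LRP1low, 0 of 56 members and 0 of 13002 genes were called against Aged by limma, with 1 member higher and 0 lower without adjustment (3.05% and 0.738% of all genes). Groups did not overlap for 21 members higher and 3 lower (30.5% and 6.95% of all genes). Without Aged + LRP1low 2, 3 members were called higher (5.36%), where 5.98% of all genes were. The member with an unadjusted p under 0.05 was Rnf219 (Obi1), a ligase of the replication origin complex, at 13.6 and 1.64 FPKM against 0.148 and 0 (2.54, SE 0.88, limma adjusted p = 0.904). Rnf139 (Trc8), a membrane ligase of sterol metabolism, was at 50.4 and 1.08 FPKM against 0.175 and 0.598 (2.92, SE 1.53, adjusted p = 0.904). In both, the first library, high in luteal markers, was far above the second.

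The effect of LRP1high cells against Aged was then compared between oocytes and granulosa cells by an interaction term over all 21 libraries. No member of 72 was called by limma (0 of 21767 genes), with 0 higher and 9 lower at p under 0.05 without adjustment (0.221% and 15.8% of all genes). Without oocyte Aged 2, 15 members were called lower (20.8%), where 34.4% of all genes were. For Rnf41 the oocyte change was lower than the granulosa change by a difference of -4.36 (SE 1.05, limma adjusted p = 0.0799), and for Rnf150 by -3.48 (SE 0.90, adjusted p = 0.0865). The median member differed by -1.47 and the median gene by -1.68.

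Directions of whole groups of members depended on scaling. The median change of all genes was 0.94, -1.05, -0.86 and 0.68 for Aged against Young and for Aged + LRP1high, Aged + Unsorted and Aged + LRP1low against Aged in oocytes, and quantile normalization brought it to between -0.05 and 0.04. Under that scaling the median member changed by -0.41 where it was 0.93 for Aged against Young, by 0.38 where it was -0.67 for Aged + LRP1high against Aged, and by 0.55 where it was -0.92 for Aged + LRP1high against Aged + LRP1low, so no direction is given here for the family.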

How the data were processed

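RNA was measured in 12 oocyte and 9 granulosa cell libraries, grouped by their labels. The authors aligned reads with HISAT2 2.2.1 and computed, with StringTie 1.3.3b, the deposited coverage (mean depth over a gene, a signal), FPKM and TPM per gene. The submitters' processing notes name mm9, but identifiers and coordinates are those of GENCODE M21 on GRCm38 (54888 of 55154 shared identifiers with equal coordinates). The labels name a stranded kit and the study's methods Smart-seq2. Gene identifiers that occur more than once (4 to 21 per table) were summed.

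Depth was taken as coverage divided by FPKM, as its median across 21693 genes that have 1 transcript of 1 exon. No count table was used, so no counting intervals were computed. Tests used limma 3.58.1 in R 4.3.3 (lmFit, eBayes, two-sided) on log2(FPKM + 1) for genes whose FPKM averaged 1 or more across a fit's libraries, and adjusted by Benjamini-Hochberg over all genes tested. Comparisons among oocyte groups were fitted on all 12 oocyte libraries, and those among granulosa groups on all 9 granulosa libraries. The filter, the spread and the SE thus came from all groups of that cell type, not only from the groups compared. Oocytes against granulosa cells used the Aged + LRP1high libraries alone, and the interaction used every library. Calls needed a fold over 1.5 and an adjusted p below 0.05. The code was tested on simulated data. Alternatives were TPM, a pseudocount of 0.1, no filter, quantile normalization, trend and robust eBayes, only the compared groups, a replicate block and leaving out each library.

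Named members were Rnf41, Rnf150, a list of members by role, the 10 highest by mean FPKM in each cell type, and per comparison up to 10 called members, or, with fewer than 5, up to 5 whose groups did not overlap, in each direction. The members listed as detected in all 8 or in none of 8 oocyte libraries were named after their values were seen. Among the members, 1 that is counted in every fit and total is not reported here. Members, role lists, pathway lists and markers were chosen with earlier results of these data known.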

Additional observations from a re-analysis of the deposited data

How the results depend on the processing

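Counts of called members depended on the settings. For Aged + LRP1high against Aged + LRP1low in oocytes, 6 members lower became 16 with TPM (1 higher), 16 with no filter on low values, 27 (5 higher, 22 lower) with only the compared groups in the fit, 0 with a pseudocount of 0.1, 0 after quantile normalization, 0 with the replicate block and 0 to 1 when a library was left out. For oocytes against granulosa cells, 6 became 15 with TPM, 2 with a pseudocount of 0.1, 2 with no filter, 3 after quantile normalization (2 higher and 1 lower) and 2 to 18 when a library was left out, 18 being without oocyte Aged + LRP1high 3. Aged against Young went from 0 to 1 with TPM, 1 with no filter and 0 to 7 without a library. Aged + LRP1high against Aged went from 0 to 2 with TPM, 2 with no filter, 1 without the 4 libraries low in oocyte markers and 0 to 9 without a library. Aged + Unsorted against Aged went to 1 with TPM, 1 with no filter and 0 to 7. Aged + LRP1low against Aged went to 2 with TPM, 2 with no filter and 0 to 7. The interaction went to 2 with TPM, 2 with no filter and 0 to 15. The values of 7, 9, 7 and 15 were without oocyte Aged 2 for Aged against Young, Aged + LRP1high, Aged + Unsorted and the interaction, and the 7 for Aged + LRP1low were without oocyte Aged 1. Granulosa Aged + LRP1low against Aged gave 0 to 3, 3 being without Aged + LRP1low 2. The cause was not tested. The share of all genes called moved with these counts. For Aged + LRP1high against Aged + LRP1low, 46.7% of genes were lower with TPM (18.5% of members), 41.8% with no filter (19.5%) and 63.1% with only the compared groups (27.8%). For oocytes against granulosa cells, 16.5% were higher with TPM (23.1% of members), 7.27% with a pseudocount of 0.1 (3.51%), 1.58% with no filter (2.44%) and 5.07% after quantile normalization (3.51%). In the other comparisons that had calls, TPM and no filter called 1.22% to 2.47% of members, where 1.59% to 21.8% of genes were called either way.

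Among called members, Rnf34 was called in 13 of 13 alternatives and Rnf122 and Rnf8 in 11 of 13, Rnf114 in 5 and Rnf220 in 3. Rnf150 was called in 6 of 12 and Rnf157, Rnf103, Rnf144a, Rnf39 and Rnf151 in 4 of 12. Quantile normalization turned Rnf220 to -0.67, Rnf8 to -0.65 and Rnf41 to 0.28 in Aged + LRP1high against Aged + LRP1low, and Rnf41 to -0.0155 in granulosa Aged + LRP1low against Aged, which ran from -0.0697 to 0.450 without a library, the lowest without granulosa Aged + LRP1low 2. Over all genes it moved calls for oocytes against granulosa cells from 1596 higher and 61 lower to 662 and 272, and for Aged + LRP1high against Aged + LRP1low from 340 higher and 6951 lower to 148 and 556.

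The deviations of libraries with the same number correlated with r between -0.277 and 0.478. In a group of 2 libraries the 2 deviations mirror each other, so these values cannot settle whether the numbers pair the libraries. The block changed no count of called members by over 1.5 times except the 6 that became 0. Leaving out the granulosa Aged + Unsorted library changed no count (0 in each of its comparisons). Alternatives without the 4 oocyte libraries or without that library were chosen after seeing the data. Groups of 1 to 3 libraries of unequal state limit all comparisons.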
